A study of Glycine max with 2 samples.

Results

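The 4-coumarate:CoA ligase (4CL) family of soybean was examined in seedlings given salt and in seedlings given water. The members were all soybean probe sets on the array whose single gene symbol in the platform's annotation is 4CL, 4CL1, 4CL2, 4CL3 or 4CL4. There were 7 such probe sets, for 5 genes, among 37593 soybean probe sets and 6031 genes with a name. The seedlings were Glycine max, cultivar Williams 82, grown for 14 days. The salinity group received 150 mM NaCl and the mock group water alone. RNA taken at 1, 3, 6, 12 and 24 h was pooled within each group, and another part of the description also lists 0 h. Each pool was hybridised to 1 Affymetrix Soybean Genome Array, so there are no replicates. No test was possible, and every difference below describes these 2 arrays. The organs taken are not named.

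4CL enzymes join coenzyme A to 4-coumarate and related hydroxycinnamic acids, which phenylalanine ammonia-lyase (PAL) and cinnamate 4-hydroxylase (C4H) supply. The activated acids go on to lignin precursors or, through chalcone synthase, to flavonoids and the isoflavonoids typical of legumes. In soybean, 4CL1 is known for its ability to use sinapate, a building block of lignin. 4CL3 and 4CL4 are closely related to each other and are known to respond to pathogen elicitors in cultured soybean cells. The gene with the plain symbol 4CL is described here by that symbol alone.

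All 5 genes had a higher signal on the salinity array, and 4CL3 differed most. 4CL3 was 2.25-fold higher, 4CL4 1.56-fold, 4CL2 1.42-fold, 4CL 1.27-fold and 4CL1 1.27-fold, each by its brightest probe set. Their median log2 ratio of salinity over mock was 0.50, against -0.0033 over the 5892 named genes with a signal above background. By the fixed rule of at least 2-fold, 4CL3 was higher, none of the 5 was lower, and 4 lay within the rule. Among all named genes, 5.02% passed the same rule upwards and 5.67% downwards. A log2 ratio above 0 was found for all 5 genes, and for 49.8% of named genes. The 5 genes were chosen with earlier results of these data known and were read on the same 2 arrays. They are therefore not independent draws to be tested against that share. At the level of probe sets, 1 of 7 was at least 2-fold higher and 0 were 2-fold lower, where 4.33% and 5.36% of all measured soybean probe sets were. All 7 lay above 0, against 49.7% of soybean probe sets. Sets of 1 gene are assigned to the same transcripts, so these 7 do not count as separate observations.

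**Figure D1:**
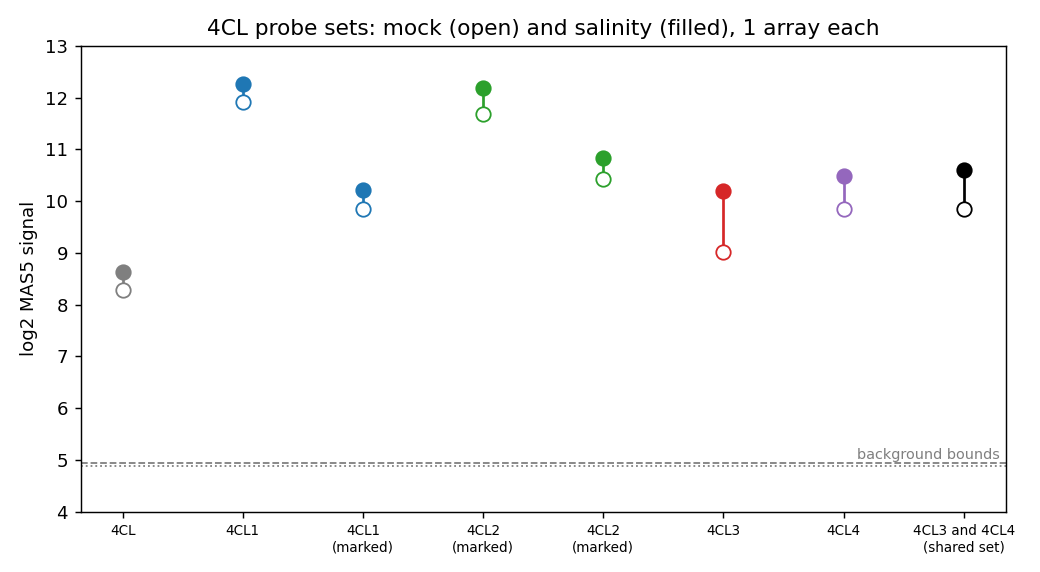
Log2 MAS5 signal (vertical axis) of each 4CL probe set on the mock array (open circles) and the salinity array (filled circles), 1 array each, with the background bounds as broken lines. "Marked" means a suffix for possible cross-hybridisation, and the last column is a set assigned to both 4CL3 and 4CL4. Every filled circle lies above its open circle, and the gap is widest for 4CL3 (9.03 to 10.20).

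The 4CL3 probe set had a log2 signal of 9.03 on the mock array and 10.20 on the salinity array, a log2 ratio of 1.17. On the linear scale its signal was 521.4 and 1173. Within each array's soybean probe sets, its level lay at the 58.8th percentile on the mock array and the 76.8th on the salinity array. A ratio at least as high was found for 1089 of 33784 measured soybean probe sets, or 3.22%. Among probe sets of like brightness (the middle of 3 equal groups by mean signal), the share was 2.85%, and the SD of the log2 ratio in that group was 0.64.

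The 4CL4 probe set had a log2 signal of 9.84 on the mock array and 10.48 on the salinity array, a log2 ratio of 0.64. Its level moved from the 71.8th to the 80.4th percentile. This ratio was reached or passed by 9.89% of measured soybean probe sets. One further probe set is assigned to both 4CL3 and 4CL4 and was therefore not counted as a member. Its log2 signals were 9.86 (mock) and 10.60 (salinity). Its log2 ratio of 0.74 lay between those of the sets assigned to 4CL4 alone (0.64) and to 4CL3 alone (1.17). That set carries a suffix for possible cross-hybridisation, and the 4CL3 and 4CL4 sets do not. How far the 4CL3 and 4CL4 sets also bind each other's transcripts was not tested.

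4CL1, the sinapate-using ligase, was measured by 2 probe sets. The brighter had log2 signals of 11.92 on the mock array and 12.26 on the salinity array, and the dimmer 9.86 and 10.21. The dimmer set is marked for possible cross-hybridisation, and the brighter is not. Their log2 ratios, brighter set first, were 0.34 and 0.35. The sets differed by 0.014, against an SD of 0.42 for such pairs of sets over all genes. Ratios of this size were common, since 21.2% of measured soybean probe sets reached that of the brighter set.

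4CL2 was also measured by 2 probe sets, both marked for possible cross-hybridisation. The brighter had log2 signals of 11.69 (mock) and 12.19 (salinity), and the dimmer 10.43 and 10.83. Their log2 ratios were 0.50 and 0.40, a difference of 0.10. The brighter set's ratio was reached by 13.9% of measured soybean probe sets and the dimmer set's by 18.1%.

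The gene with the symbol 4CL had the lowest signal of the family, 8.28 on the mock array and 8.63 on the salinity array on the log2 scale. Its log2 ratio was 0.35, which 20.7% of measured soybean probe sets reached. It still lay 3.34 log2 units above the background bound on the mock array, the narrowest margin among the 7 sets. None of the 14 member signals was therefore raised to the bound.

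**Figure D2:**
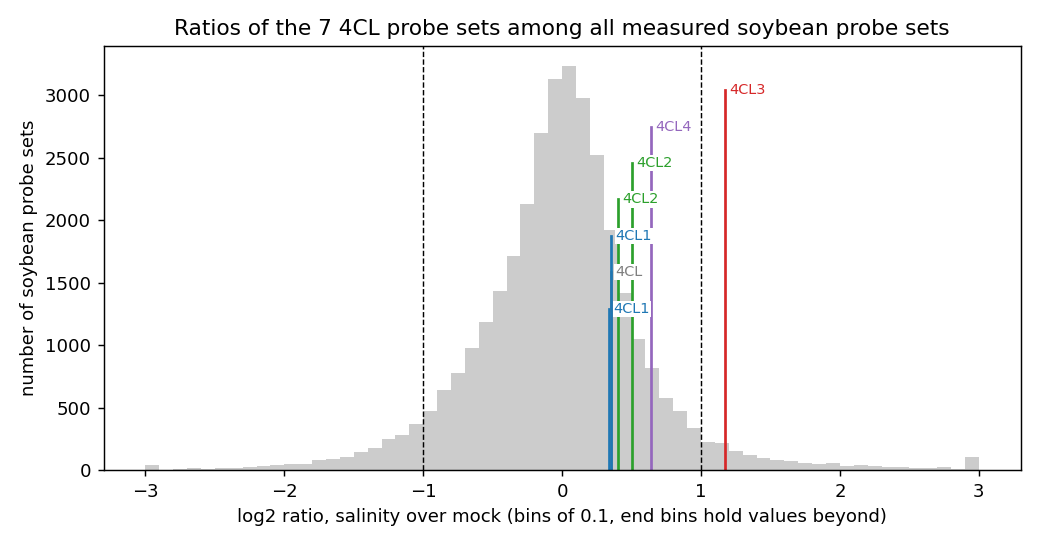
Histogram of the log2 ratio of salinity over mock (horizontal axis, bins of 0.1) for the 33784 measured soybean probe sets (vertical axis, number of sets), with the 7 4CL sets as coloured lines of arbitrary height and the 2-fold limits as broken lines. The 7 sets all lie to the right of 0, and the 4CL3 line (1.17) alone lies past a 2-fold limit.

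Signals of different probe sets do not rank transcripts by amount, because probes differ in how strongly they bind. As measured, log2 signals on the mock array ran from 8.28 (4CL) through 9.03 (4CL3), 9.84 (4CL4) and 11.69 (4CL2) to 11.92 (4CL1), each by its brightest set. The order on the salinity array was the same, from 8.63 to 12.26. The 2 sets of 4CL1 differed by 2.06 log2 units on the mock array although they are assigned to 1 gene. Those of 4CL2 differed by 1.26. Over 1618 named genes with 2 or more sets above background on both arrays, the 2 brightest sets had a median gap of 1.13 log2 units. That gap was at least 2 log2 units for 28.5% of them. On the mock array the neighbours 4CL and 4CL3 (0.74 apart), 4CL3 and 4CL4 (0.82), and 4CL2 and 4CL1 (0.23) were closer than that median, and 4CL4 and 4CL2 (1.84) were not. On the salinity array 4CL and 4CL3 (1.56) and 4CL4 and 4CL2 (1.71) were farther apart than that median, and the other neighbours closer. The whole span of the family on the mock array was 3.64 log2 units, a range over 5 genes and not a gap between 2 sets.

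In the ratio between arrays a probe's binding strength largely cancels, so ratios of different genes can be set against each other. The only repeat measurement is that between probe sets of 1 gene. Over the same 1618 genes, the log2 ratios of the 2 brightest sets differed with an SD of 0.42. This spread holds no difference between plants, pools or arrays. Sets marked for possible cross-hybridisation, which may read other transcripts too, were kept in it. All 10 pairs of 4CL genes were compared. The 4 pairs with 4CL3 differed by more than that SD, and the other 6 pairs by less. Those 4 pairs all use the same 1 probe set of 4CL3, so they are not separate observations.

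The 4CL3 log2 ratio exceeded that of 4CL1 by 0.83, 4CL by 0.82, 4CL2 by 0.67 and 4CL4 by 0.53. Gaps of at least these sizes were seen between sets of 1 gene in 5.44%, 5.56%, 9.77% and 14.7% of the 1618 genes. Among the other 4 genes, ratios ran from 0.34 to 0.64. The widest gap there, 4CL4 over 4CL1, was 0.30, and 34.1% of the 1618 genes had one at least as wide. These arrays did not separate 4CL, 4CL1, 4CL2 and 4CL4 in their difference between salinity and mock. They do not show that the 4 responded alike. Whether 4CL3 differs from the other 4 genes beyond the spread between plants, pools or arrays was not tested.

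**Figure D3:**
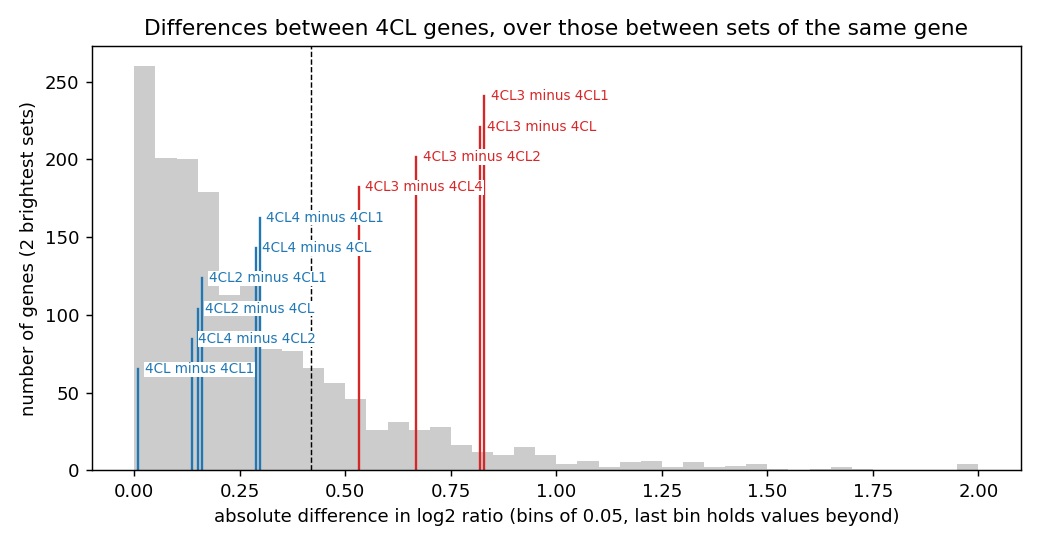
Histogram of the absolute difference in log2 ratio between the 2 brightest probe sets of a gene (horizontal axis, bins of 0.05) over 1618 genes (vertical axis, number of genes), with the SD of that difference (0.42) as a broken line. Coloured lines, of arbitrary height, give the 10 differences between 4CL genes, red for the 4 pairs with 4CL3 (0.53 to 0.83), all past the broken line, and blue for the other 6 (0.0095 to 0.30), all before it.

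The other enzymes of the pathway were described from 5 lists of gene symbols, which together found 39 genes, 37 of them above background on at least 1 array. Of these, 10 were at least 2-fold higher on the salinity array, 4 at least 2-fold lower and 23 past neither limit, with a median log2 ratio of 0.55. The 4CL median was 0.50. Upstream of 4CL, C4H and PAL2.1 were the 2 genes found, PAL2.1 being named after its value was seen. C4H had log2 signals of 12.82 (mock) and 13.23 (salinity), a log2 ratio of 0.41, and 0.39 by its other set. PAL2.1 had a log2 ratio of 0.37 by its brightest set, which is marked for possible cross-hybridisation. Its other sets gave 0.13 to 0.19. By their brightest sets both genes lay within the range of 4CL, 4CL1 and 4CL2 (0.34 to 0.50). The other PAL2.1 sets lay below it. Other PAL genes were not analysed here.

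Towards lignin, CYP98A2, a coumarate 3-hydroxylase gene, had a log2 ratio of 0.87 by its brightest set. Its other sets gave 0.06 to 0.58. The other gene found there, CCR, for cinnamoyl-CoA reductase, was at 0.23 by a marked set and at 0.68 by its other set, and was named after its value was seen. Neither reached 2-fold, and the list is too short to stand for the branch.

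Towards flavonoids, the chalcone and flavanone list held 11 genes with a median log2 ratio of 0.70, which is the value of CHR3 and a lower limit, its mock signal being below the bound. CHR5, a chalcone reductase gene, was 3.88-fold higher and CHI1A, a chalcone isomerase gene, 2.06-fold higher. Both were read by sets marked for possible cross-hybridisation alone, so neither has a value without such sets. CHI3A1, of the chalcone isomerase family, was 2.58-fold lower. Its log2 signal on the salinity array, 4.92, was just above the bound of 4.88. With a bound at the 99th percentile this gene was no longer 2-fold lower. Of the other 8 genes, 7 lay within the 2-fold rule, and CHR3, with a limit of at least 1.62-fold higher, could not be placed. With the bound at the 90th percentile, or with 16 added to the signal, CHR3 was also past 2-fold and 3 genes were higher.

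The isoflavone and pterocarpan list had the highest median, 1.10, over 15 measured genes. By the 2-fold rule, 8 of these were higher and 0 lower. The largest ratio was that of LOC100813225, an isoflavone O-methyltransferase gene by its synonym, which was at least 8.91-fold higher since its mock signal was below the bound. CYP93A1, a pterocarpan hydroxylase gene, was 5.32-fold higher by a set marked for cross-hybridisation (log2 ratio 2.41, and 1.08 by its other set). IFR, an isoflavone reductase gene, was 3.31-fold higher by a set marked for cross-hybridisation (log2 ratio 1.73, and 1.11 by its unmarked set). Of the 37 measured genes in the 5 lists, 8 had a ratio at least as high as 4CL3, 17 as high as 4CL4, and 24 as high as 4CL1.

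The flavonol and anthocyanin list went the other way, with a median of -0.88 over 7 measured genes and 3 at least 2-fold lower. ANS2, for anthocyanidin synthase, was 3.90-fold lower. DFR2, for dihydroflavonol reductase, was 3.28-fold lower, and UGT78K1, an anthocyanidin glucosyltransferase gene, 2.47-fold lower. The DFR2 log2 signal on the salinity array, 4.99, was just above the bound of 4.88. With a bound at the 99th percentile, 3 genes of this list were still at least 2-fold lower. No 4CL gene shared that direction.

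**Figure D4:**
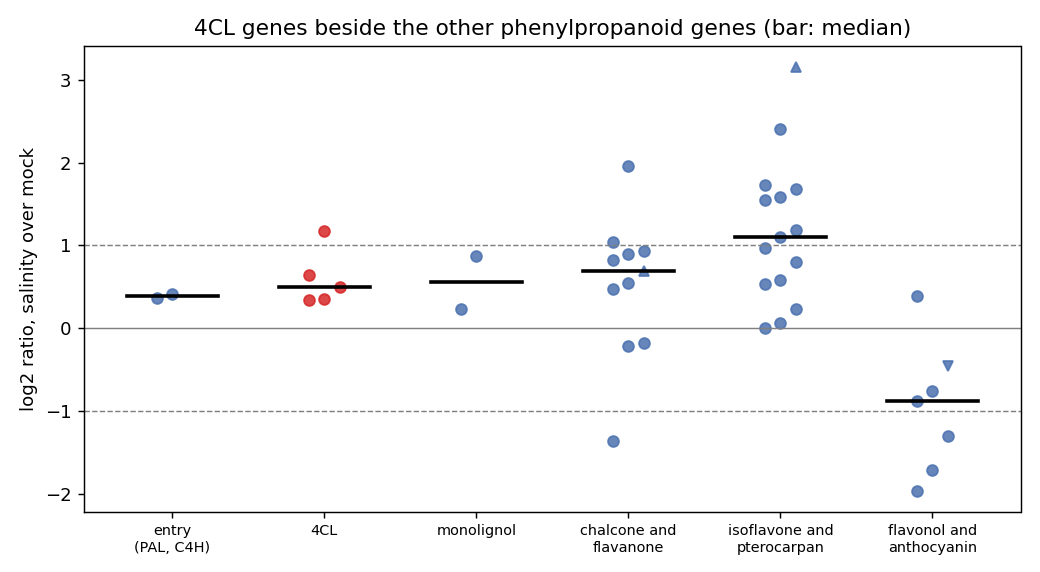
Log2 ratio of salinity over mock (vertical axis) of each measured gene by its brightest probe set, for the 4CL genes (red) and 5 lists of other phenylpropanoid genes (blue), with medians as black bars and the 2-fold limits as broken lines. Triangles are limits, for genes above background on 1 array alone. The 4CL genes run from 0.34 to 1.17, the 2 entry genes from 0.37 to 0.41, and the isoflavone and pterocarpan genes from -0.0005 to 3.16. All 5 4CL genes lie above the flavonol and anthocyanin genes other than DFR1 (0.39). With 1 ratio per gene, a like value does not link a 4CL gene to a branch.

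The 5 genes are separate loci in the RefSeq annotation of assembly Glycine_max_v4.0, and no pair of them is adjacent. 4CL and 4CL2, which share a chromosome, have 505 annotated genes between them. 4CL3 has 2 RefSeq protein records and the other genes 1 each. No base or amino acid sequence of the members was used here.

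Both arrays had been scaled to the same level, with a 2% trimmed mean signal of 498.8 (salinity) and 498.5 (mock). The leaf genes found, CAB3 and PSAD, were bright on both arrays, and their summed signal was 62914 in the mock pool and 52037 in the salinity pool. Their log2 ratios were -0.24 and -0.32, opposite to those of the 4CL genes. Of 6 seed storage genes, 1 (GY2) was above background, on the salinity array alone and just above the bound (5.05 against 4.88). The 2 nodule genes found differed in opposite directions (-1.76 for ENOD55-2 and 1.23 for N-36A). Soybean ribosomal RNA was read above background on both arrays by 35 probe sets, of which 32 were brighter on the salinity array, with a median log2 ratio of 0.85. The part that organ mix or RNA makeup had in the 4CL differences was not tested. In pooled RNA, fewer cells of a type and less RNA per cell cannot be told apart.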

How the data were processed

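The deposited values are MAS5 signals on a log2 scale, 1 column per array. MAS5 is named in the submitters' processing notes without a version, and nothing is given on later steps. It summarises the matched and mismatched probes of a set and scales each array as a whole. The values were used as deposited, with no further normalization. Background was bounded, per array, by the 95th percentile over 23350 probe sets made for other organisms. This bound, on the log2 scale, was 4.94 for mock and 4.88 for salinity. Lower signals were raised to it, and a set above it on at least 1 array counted as measured.

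The difference is log2(salinity / mock). Groups came from the stress label, with 1 array each, so the number of arrays limits the precision and a rule of at least 2-fold replaced a test. Genes were taken from the platform's annotation (8677 sets with 1 gene, 370 with several, left unnamed) and RefSeq symbols. A gene was represented by its brightest set, by mean log2 signal. Named genes were every member and, of each list, up to 3 per direction past 2-fold, otherwise the one with the largest ratio. Members and lists were chosen with earlier results of these data known. Python 3.11.15, pandas 2.3.3 and statsmodels 0.14.6 (loess) were used. Simulated arrays with known ratios served to check the calculation, not how reliable the measured ratios are. Other scalings, bounds, low-value treatments and set choices were tried.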

Additional observations from a re-analysis of the deposited data

How the results depend on the processing

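All 5 4CL genes kept a log2 ratio above 0, and 4CL3 alone stayed past 2-fold, under every alternative that gave a value. For 4CL3 this rests on 1 probe set. The set assigned to both 4CL3 and 4CL4, which was 1.67-fold higher (log2 ratio 0.74), entered none of the alternatives, the averaging of sets included. The scalings were loess, quantile normalization and median centring. The bound was set at the 99th or 90th percentile, or replaced by adding 16 to the signal. Sets marked for cross-hybridisation were dropped, or a gene's sets were averaged. Several of these could not change the 4CL values. All member signals lay above each bound, so the choice of percentile left every 4CL ratio as it was. Each of 4CL, 4CL3 and 4CL4 has 1 unmarked set, so dropping marked sets or averaging changed nothing for them. Median centring shifts all ratios alike and leaves differences between genes unchanged. The log2 ratio ran from 1.15 to 1.20 for 4CL3, 0.63 to 0.66 for 4CL4, 0.45 to 0.53 for 4CL2, 0.34 to 0.38 for 4CL and 0.32 to 0.37 for 4CL1. Without marked sets 4CL2 has no value. The order of 4CL and 4CL1 is not settled, since their difference ran from -0.0046 to 0.047. Of 311 recomputed values, 309 moved by less than the spread between sets of a gene or, for counts, by at most 1.5 times. The 309 include those that could not change. The other 2 concern the chalcone and flavanone list. Without marked sets, no gene of it (0 against 2) was 2-fold higher, since the CHR5 and CHI1A sets both carry the mark. With the bound at the 99th percentile 0 were 2-fold lower, against 1, since the raised floor shortens the CHI3A1 ratio. No array could be left out. No paired analysis was possible because each group has 1 array.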

Other observations

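Chalcone synthase, the enzyme that takes the product of 4CL into the flavonoid branch, was read unevenly by its probe sets. CHS1 had 7 sets. The brightest gave a log2 ratio of -0.18, and the others ran from -0.84 to 0.97. CHS8 had 5 sets, with 0.90 by the brightest and -0.05 to 1.16 by the others. The 4CL1 and 4CL2 sets, by contrast, differed by 0.014 and 0.10 within their gene. Of the 4CL1 and 4CL2 sets, all but the brighter of 4CL1 are marked for possible cross-hybridisation. HIDH, for the dehydratase that completes isoflavone formation, had 4 sets between 0.80 and 1.11. These genes were chosen after their values were seen.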
